A study of Mus musculus with 12 samples.

Results

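Genes that make, break down or bind prostaglandins were followed in mRNAseq libraries of primary stromal cells from the mouse small intestine. They were taken by symbol: the synthesis enzymes Ptgs1, Ptgs2, Ptges, Ptgis and Ptgds, the degrading enzyme Hpgd, and the PGE2 receptors Ptger1, Ptger2, Ptger3 and Ptger4. All 10 were among the 23329 genes listed in the count tables, and 8 of the 10 passed the filter on low counts that left 13038 genes for testing. Ptgds and Ptger3 did not pass it. Donors were E14.5 embryos or adult mice, and cells were used at passage 2 or 3. The mice were on a C57BL6/J background according to the study's methods. The cultured cells received LPS from Escherichia coli O111:B4, given in the labels as 10 µg/µl, for 6 h, or PBS as vehicle. Stage and treatment together made 4 groups of 3 libraries, numbered 1 to 3 in each. Per the study's legend, the cultures were independent, each embryonic culture was made from pooled embryos, and adult cultures were made from adult mice. The culture medium of all groups contained the ROCK inhibitor Y27632.

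Prostaglandins are made from arachidonic acid, which phospholipases release from membranes. The cyclooxygenases encoded by Ptgs1 and Ptgs2 turn it into PGH2, and terminal synthases turn PGH2 into PGE2 (Ptges), prostacyclin (Ptgis) or PGD2 (Ptgds). Hpgd oxidises PGE2 and starts its inactivation, and the receptors EP1 to EP4 bind PGE2 at the cell surface, of which EP2 and EP4 raise cAMP. Stromal cells are a known source of PGE2 in the intestine.

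Libraries held between 18850224 and 32672370 counts at genes, read in the sense direction, so that 3 counts, taken as the floor, corresponded to 0.0907 to 0.145 CPM (counts scaled to the library total). Counting error alone is covered by that floor. The labels call the cells intestinal myofibroblasts, and the summed CPM of 9 fibroblast markers was 10876 to 27144 and that of 8 smooth muscle markers 13714 to 35246 over the libraries. The sum of 8 epithelial markers was 19.6 to 118 CPM, with Krt18 (12.7 to 81.4 CPM), Krt8 (3.55 to 32.8 CPM) and Krt19 (1.41 to 15.9 CPM) the highest, while Epcam stayed at or below 0.487 CPM. Markers of other cells were not even across libraries. The summed CPM of 15 macrophage markers was 278, 515 and 3258 in embryonic PBS libraries 1, 2 and 3 and 224, 1119 and 2437 in embryonic LPS libraries, against 55.0 to 224 in the 6 adult libraries. The sum of 8 endothelial markers was 1728 and 1795 in the adult libraries numbered 2, against at most 385 elsewhere. In the adult libraries numbered 3 it was 354 with LPS and 385 with PBS. The sum of 6 mesothelial markers was 632 and 751 in the embryonic libraries numbered 2 and at most 156 in the other embryonic libraries. In adult stroma the mesothelial sum was 434 to 1425 with LPS and 499 to 1384 with PBS. Of 6 mast cell markers, Tpsb2, Mcpt4 and Fcer1a were at 0 in all 12 libraries, Cpa3 reached 0.0964 CPM, Kit reached 4.25 CPM and Ms4a2 was at 2.65 to 30.8 CPM, for a sum of 2.94 to 30.8 CPM. In bulk samples of this kind, fewer cells of a type and less RNA per cell cannot be told apart.

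LPS was tested in 2 fits. The first took the 4 group means without pairing. The second added the library number within each stage as a block, since same-numbered LPS and PBS libraries deviated together in all 6 pairs. An adjusted p below 0.05 counted as a call in either, and a gene is said to have risen or fallen only where it was called. In embryonic stroma 1 of the 8 tested genes was called without the block, where 2.75% of all tested genes were called, and 4 were called with the block, where 12.5% were. In adult stroma none was called without the block (0.606% of all genes) and 1 with it (6.2%). The 4 were Ptges and Ptger2, which were higher (9.43% of all genes), and Hpgd and Ptgs1, which were lower (3.11%). Ptger2 and Hpgd had passed the filter on low counts only through the group where each was highest, so their calls carry that selection. The adult call was Ptges, higher (4.69% of all genes). For comparison, an unadjusted p below 0.05 without the block was reached by 10.8% of genes for the embryonic effect and by 5.58% for the adult one. Without the block DESeq2 called Ptges and Hpgd, 2 of the 8 genes, for the embryonic effect, where it called 5.25% of all tested genes. It called 0 of the 8 for the adult effect, where it called 2.25% of all tested genes.

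**Figure D1:**
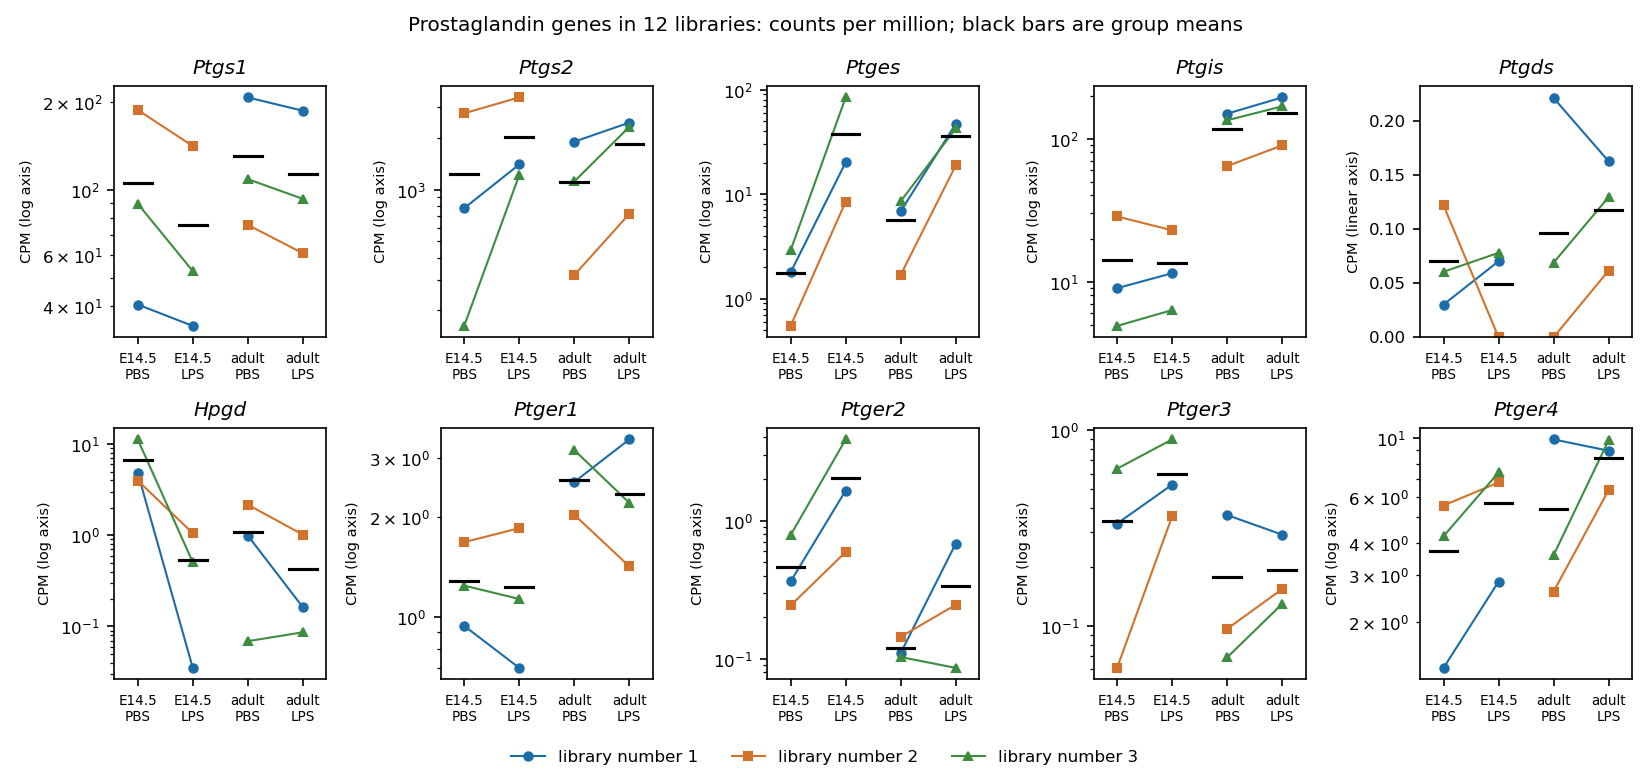
CPM of each of the 10 genes (vertical axis, log scale, but linear for Ptgds) in the 4 groups (horizontal axis). Points are libraries, lines join the same-numbered libraries of a stage, and black bars are group means. Ptges is higher with LPS along all 6 lines, Hpgd is lower along 5 of 6, and Ptgis lies higher in all adult libraries than in any embryonic library.

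The last step of PGE2 synthesis gave the largest log2 change among the 8 tested genes in both stages. Ptges, the microsomal PGE2 synthase, lies on chromosome 2 (30889471-30931020, minus strand, GRCm38.p6). It was at 1.79, 0.548 and 2.90 CPM in embryonic PBS libraries 1, 2 and 3 and at 20.1, 8.47 and 84.3 CPM in embryonic LPS libraries. In adult stroma it was at 6.85, 1.69 and 8.55 CPM with PBS and at 47.0, 18.8 and 42.5 CPM with LPS. All LPS libraries lay above all PBS libraries of their stage, which 11.9% of tested genes also did, in either direction, in embryonic and 14.6% in adult stroma. The smallest rise within a pair was 4.97-fold (adult 3) and the largest 29.0-fold (embryonic 3). The log2 fold change in embryonic stroma was 4.44 (SE 0.98, 95% confidence interval 2.26 to 6.61) without the block, with an adjusted p of 0.0418 by edgeR's quasi-likelihood test, and 4.20 (SE 0.31, adjusted p = 7.97e-05) with it. In adult stroma it was 2.67 (SE 0.90, adjusted p = 0.469) without the block and 2.78 (SE 0.27, adjusted p = 0.000872) with it. The unblocked embryonic call was held in only 3 of the 12 fits that left out 1 library (adult PBS 2, embryonic LPS 1 or embryonic LPS 2) and lost in the other 9, with an adjusted p of up to 0.171. With the block, Ptges was called in both stages in each of the 6 fits that left out a pair.

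The Ptges response of embryonic stroma exceeded that of adult stroma by 1.43 on the log2 scale with the block (95% confidence interval 0.50 to 2.35), but the difference did not pass the adjustment by edgeR (adjusted p = 0.279, unadjusted p = 0.00753). DESeq2 with the same block gave a difference of 1.34 and an adjusted p of 0.0311. Without the block the difference was 1.77 (adjusted p = 1.00). No other member had a difference between stages past the threshold, in either tool with or without the block. Of all tested genes, edgeR called 0% for this difference without the block (2.25% at an unadjusted p below 0.05) and 0.844% with it. DESeq2 called 0.192% of all tested genes without the block and 2.07% with it.

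Hpgd, the enzyme that inactivates PGE2, moved the other way. It lies on chromosome 8 (56294552-56321046, plus strand). It passed the filter on low counts through the embryonic PBS libraries alone, the group where it was highest, so the call of its fall carries that selection. It was at 4.84, 3.99 and 11.3 CPM in embryonic PBS libraries and at 0.0351, 1.05 and 0.507 CPM in embryonic LPS libraries. These groups did not overlap, as was so for 11.9% of tested genes, in either direction. The first of the embryonic LPS libraries held a single count. Summed over the libraries, embryonic Hpgd counts were 664 with PBS and 46 with LPS, a PBS to LPS ratio of 12.3 in CPM (95% counting interval 9.14 to 17.0). That interval covers counting error and not the spread between cultures. The PBS to LPS ratio was 138, 3.78 and 22.3 in embryonic pairs 1, 2 and 3, all outside it. The fall was -3.62 on the log2 scale (SE 0.65, adjusted p = 0.0101, edgeR) with the block and -3.59 (SE 1.24, adjusted p = 0.240) without it, and with the block it was called in each of 6 fits without a pair. In adult stroma Hpgd was at 0.994, 2.17 and 0.0689 CPM with PBS and at 0.162, 1.02 and 0.0863 CPM with LPS. The third adult pair, with 2 counts in each library, did not show the fall, and the adult change of -1.44 did not pass the test (SE 0.81, adjusted p = 0.439 with the block). The difference between stages was not called (-2.18, 95% confidence interval -4.70 to 0.34, adjusted p = 0.640 with the block). The embryonic PBS library highest in Hpgd was also the highest in the macrophage sum, and the macrophage sum fell from PBS to LPS by less than Hpgd in embryonic pairs 1 and 3 and rose in pair 2. Of the 15 markers in that sum, edgeR with the block called 4 higher and 1 lower with LPS in embryonic stroma. Over all tested genes 9.43% were called higher and 3.11% lower. The sum can thus move with LPS as well as with cell number. The part of macrophages in the change of Hpgd was not tested.

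**Figure D2:**
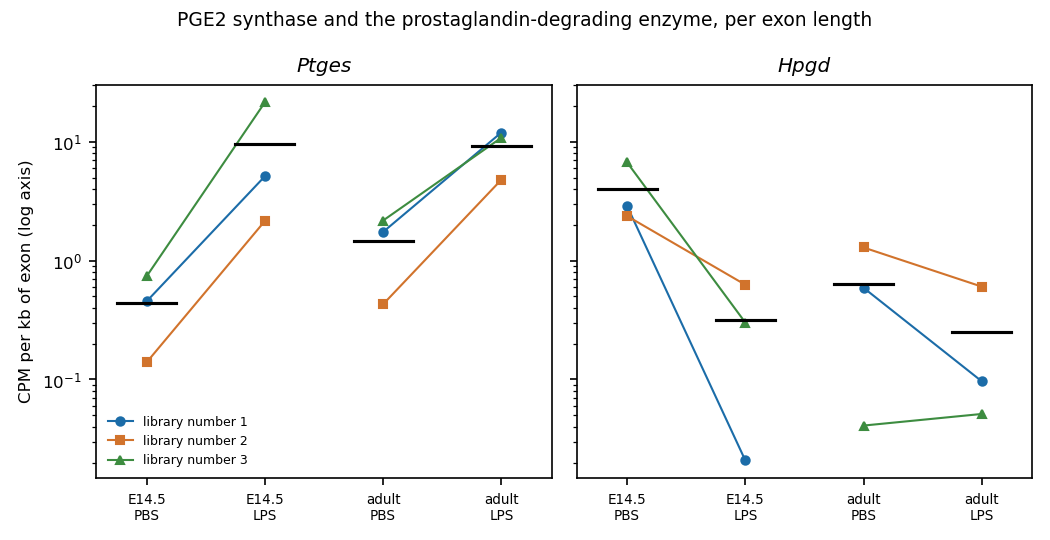
Ptges (left) and Hpgd (right) as CPM per kb of exon (vertical axis, log scale) in the 4 groups. Points are libraries, lines join same-numbered libraries and black bars are group means. In embryonic stroma Hpgd lies above Ptges in every PBS library and below it in every LPS library.

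Per kb of exon, Ptges stood at 0.0588 to 0.158 of the Hpgd level in the embryonic PBS libraries and at 3.44 to 246 times it in the embryonic LPS libraries. In adult stroma the same ratio was 0.333 to 53.1 with PBS and 7.93 to 211 with LPS. The order of the transcripts thus turned over in all 3 embryonic pairs, and in 1 adult pair, that numbered 2, the only one with the ratio below 1 in PBS. The ratio is read from counts as low as 1, so its upper values are rough.

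The cyclooxygenases carried far more reads. Ptgs2, the inducible cyclooxygenase (chromosome 1, 150100031-150108234, plus strand), was at 779, 2770 and 162 CPM in embryonic PBS and at 1398, 3424 and 1212 CPM in embryonic LPS libraries. In adult stroma it was at 1894, 318 and 1113 CPM with PBS and at 2446, 721 and 2310 CPM with LPS. Ptgs2 was already abundant without LPS: over the PBS libraries it ranked between 24 and 1028 of all genes by CPM and held 0.0175% to 0.283% of a library's counts. Each of the 6 pairs was higher with LPS, which 11.5% of tested genes were, by 1.24-fold (embryonic 2) to 7.50-fold (embryonic 3). Groups overlapped, and libraries of different numbers within a group differed by more than most pairs did. The log2 fold change was 1.34 (SE 0.44, adjusted p = 0.0938) in embryonic and 0.88 (SE 0.42, adjusted p = 0.335) in adult stroma with the block, and 0.74 and 0.73 without it. No call was therefore made for Ptgs2, although leaving out the embryonic pair numbered 2 gave an adjusted p of 0.0361 in embryonic stroma and leaving out the embryonic pair numbered 3 gave 0.0125 in adult stroma.

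Ptgs1, the constitutive cyclooxygenase (chromosome 2, 36216742-36258593, plus strand), was lower with LPS in all 6 pairs, as 11.3% of tested genes were. It was at 40.5, 187 and 89.6 CPM in embryonic PBS and at 34.3, 141 and 52.8 CPM in embryonic LPS libraries. In adult stroma it was at 207, 75.9 and 109 CPM with PBS and at 186, 60.7 and 93.1 CPM with LPS. The PBS to LPS ratio within pairs was 1.11 to 1.70. With the block the fall in embryonic stroma, -0.45 on the log2 scale (SE 0.10, adjusted p = 0.0267), passed the test and that in adult stroma did not (-0.22, SE 0.10, adjusted p = 0.305). The embryonic call held in 4 of the 6 fits without a pair and was lost without the embryonic pair 3 or the adult pair 1, with adjusted p up to 0.0543. Without the block the values were -0.43 and -0.19, with adjusted p near 1. Per kb of exon, Ptgs2 exceeded Ptgs1 in all libraries, from 1.53 to 16.3 times in embryonic PBS, 19.5 to 34.6 in embryonic LPS, 3.56 to 8.69 in adult PBS and 10.1 to 21.0 in adult LPS.

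**Figure D3:**
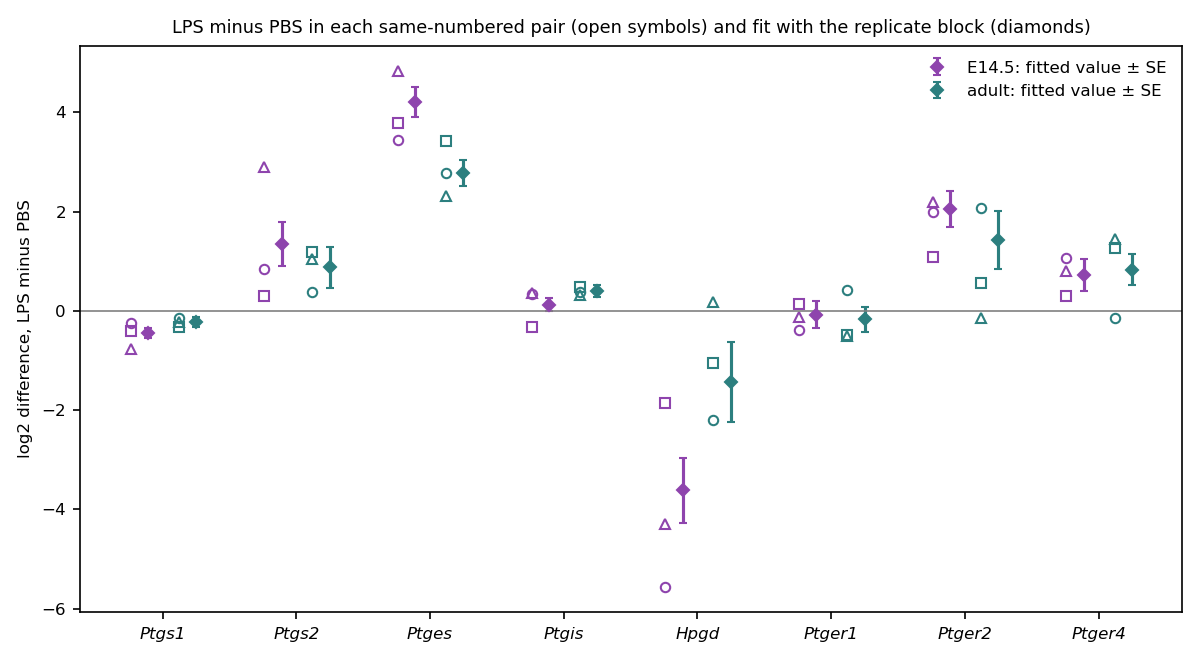
LPS minus PBS on the log2 scale (vertical axis) for the 8 tested genes (horizontal axis), with each same-numbered pair as an open symbol (circle 1, square 2, triangle 3) and the fitted value with the replicate block as a diamond with its SE, E14.5 in purple and adult in green. Ptges lies at 2.30 or above in all pairs, Hpgd at -1.85 or below in the embryonic pairs, and Ptgs1 just below 0 throughout.

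The promoters of 3 members are shown, Ptges and Hpgd, which were called for LPS, and Ptgs2, which was not. Each is given as the 250 bases before the transcription start in RefSeq's GRCm38.p6 annotation, with matches to the motifs searched in capitals. Ptgs2 (chr1:150099781-150100030, plus strand), Ptges (chr2:30903298-30903547, minus strand, the start of an isoform inside the gene's span) and Hpgd (chr8:56294302-56294551, plus strand) read:
Ptgs2: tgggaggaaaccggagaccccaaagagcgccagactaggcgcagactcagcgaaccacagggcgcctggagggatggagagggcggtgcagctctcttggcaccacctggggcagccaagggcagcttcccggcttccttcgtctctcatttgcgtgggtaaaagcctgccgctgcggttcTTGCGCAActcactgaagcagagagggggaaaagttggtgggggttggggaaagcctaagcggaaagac
Ptges: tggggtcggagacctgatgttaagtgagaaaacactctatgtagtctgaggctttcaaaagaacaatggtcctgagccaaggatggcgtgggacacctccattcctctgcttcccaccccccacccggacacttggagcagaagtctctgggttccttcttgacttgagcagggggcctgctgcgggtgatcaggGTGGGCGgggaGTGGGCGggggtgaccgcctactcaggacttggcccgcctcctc
Hpgd: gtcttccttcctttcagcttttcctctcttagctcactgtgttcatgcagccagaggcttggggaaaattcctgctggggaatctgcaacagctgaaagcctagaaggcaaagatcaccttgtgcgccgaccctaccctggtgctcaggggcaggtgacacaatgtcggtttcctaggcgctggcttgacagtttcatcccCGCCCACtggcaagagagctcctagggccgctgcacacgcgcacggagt

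Of the 10 genes, 8 had an entry in the promoter table. Each 300-base window (250 before and 50 after the start) was searched on both strands. The C/EBP palindrome TTGCGCAA stood 69 bases before the start of Ptgs2, and 0.183% of all promoters of that length hold it. The E-box CACGTG began 17 bases into the Ptgs2 transcript (7.15% of promoters). It overlapped a CRE half-site, TGACG, that began at 14 on the other strand (20.8% of promoters). Ptges held the Egr site GTGGGCG 55 and 44 bases before the start. Hpgd held the same site on the other strand, 49 bases before the start and 39 into the transcript, and 7.97% of promoters hold at least 1. The TATA box TATAAA began 5 bases into the Hpgd transcript (13.6% of promoters). The AP-1 site TGANTCA (7.81% of promoters) and the NF-kB consensus (8.46%) had no match in these 3 windows. These matches describe letters only.

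Ptgis, the prostacyclin synthase (chromosome 2, 167203194-167252150, minus strand), separated the stages rather than the treatments. It was at 149, 64.2 and 134 CPM in adult PBS and at 194, 89.6 and 168 CPM in adult LPS libraries, against 8.99, 28.5 and 4.90 CPM in embryonic PBS and 11.4, 22.8 and 6.32 CPM in embryonic LPS libraries. Every adult library lay above every embryonic one. The stages did not overlap, in either direction, for 24.5% of tested genes with PBS and 25.3% with LPS. Embryonic minus adult was -3.03 on the log2 scale with PBS (SE 0.71, adjusted p = 0.0439, edgeR without block), an 8.16-fold lower level, and -3.44 with LPS (SE 0.72, adjusted p = 0.0274), a 10.8-fold lower level. By edgeR it was the only one of the 8 genes called between the stages, where 4.08% of all tested genes were called with PBS and 5.31% with LPS. The call with PBS was kept in 3 of 12 fits without 1 library (embryonic LPS 2, embryonic LPS 3 or embryonic PBS 2) and lost in 9 (adjusted p up to 0.137). That with LPS was lost in 4 of 12, without adult LPS 1, adult LPS 3, embryonic LPS 1 or embryonic LPS 3 (adjusted p up to 0.0898). The sign held in all of these fits. The embryonic libraries numbered 2 had the highest embryonic mesothelial sums and the highest embryonic Ptgis. Without both of them the values were -4.07 and -4.09 (adjusted p of 0.00557 and 0.00588). Mesothelial sums were 434 CPM or more in all adult libraries, and their part in the stage difference was not tested. Without both adult libraries numbered 2, which had the highest endothelial sums, the stage differences were -3.32 and -3.73 (adjusted p of 0.0638 and 0.0468). With LPS the log2 change of Ptgis was 0.40 in adult stroma (SE 0.11, adjusted p = 0.0956 with the block) and 0.12 in embryonic stroma (SE 0.13, adjusted p = 0.608). Leaving out embryonic pair 2 gave a call in both (0.40, adjusted p = 0.00794, and 0.36, adjusted p = 0.0349).

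Other members also differed in level between stages without passing the test. Groups did not overlap with PBS for Hpgd and Ptger2, higher in embryonic stroma, and for Ptger1, lower there, and with LPS for Ptger3, higher in embryonic stroma, where 24.5% of tested genes did not overlap with PBS and 25.3% with LPS. The Hpgd difference with PBS was 2.65 (SE 1.19, adjusted p = 0.249) and that of Ptger2 was 1.94 (SE 0.90, adjusted p = 0.266). With LPS, Ptger2 differed by 2.54 (SE 0.78, adjusted p = 0.0886 by edgeR and 0.0283 by DESeq2). Hpgd had passed the filter on low counts only through the embryonic PBS libraries, and Ptger2 only through the embryonic LPS libraries. Ptges with PBS was lower in embryonic stroma by -1.71 (SE 0.90, adjusted p = 0.332), and with LPS the stages stood at a difference of 0.06 (95% confidence interval -1.80 to 1.91). Ptgs1, Ptgs2 and Ptger4 overlapped between the stages in both treatments.

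Ptgds, the lipocalin-type PGD2 synthase (chromosome 2, 25466709-25470110, minus strand), held 0 to 6 counts in every library and 29 in all. Nothing can be said of its change at this depth.

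Of the PGE2 receptors, Ptger2 (EP2) was called for LPS, in embryonic stroma with the block, and held few reads. It passed the filter on low counts through the embryonic LPS libraries alone, the group where it was highest. No other group had it above 0.5 CPM in every library, so its call carries that selection. It lies on chromosome 14 (44988111-45003820, plus strand). It was at 0.363, 0.244 and 0.786 CPM in embryonic PBS and at 1.65, 0.593 and 3.86 CPM in embryonic LPS libraries. In adult stroma it was at 0.110, 0.145 and 0.103 CPM, 3 counts in each library, with PBS and at 0.682, 0.247 and 0.0863 CPM with LPS. The embryonic pairs rose by 2.43-fold to 4.91-fold, and although all 3 rose, the lowest LPS library stayed below the highest PBS library. The rise was 2.04 on the log2 scale with the block (SE 0.36, adjusted p = 0.00916) and 2.13 without it (SE 0.76, adjusted p = 0.260). It held in 5 of 6 fits without a pair and was lost without embryonic pair 3 (adjusted p = 0.0740), the pair with the highest macrophage sums. In adult stroma the value was 1.42 (SE 0.58, adjusted p = 0.253 with the block), with 31 counts in all against 9, a CPM ratio of 3.07 (95% counting interval 1.42 to 7.32). The counting interval leaves out the spread between cultures.

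Ptger4 (EP4, chromosome 15, 5233399-5244187, minus strand) was the most abundant of the 4 receptors per kb of exon in every library but adult PBS 3, where Ptger1 stood higher. It was at 1.33, 5.54 and 4.23 CPM in embryonic PBS, 2.84, 6.79 and 7.41 in embryonic LPS, 9.90, 2.60 and 3.58 in adult PBS and 8.97, 6.35 and 9.84 CPM in adult LPS libraries. All embryonic pairs and 2 of 3 adult pairs were higher with LPS. The log2 change was 0.72 in embryonic stroma (SE 0.32, adjusted p = 0.190 with the block) and 0.83 in adult stroma (SE 0.31, adjusted p = 0.207), and only the fit without adult pair 1 gave an adult call (1.38, adjusted p = 0.0419). Ptger2 stood at 0.0563 to 0.349 of Ptger4 per kb in embryonic PBS and at 0.112 to 0.743 in embryonic LPS, against at most 0.0974 in adult libraries.

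Ptger3 (EP3, chromosome 3, 157566821-157644758, plus strand) held 2 to 23 counts per library, 0.0609 to 0.897 CPM, and was not tested. Summed counts were 34 with PBS and 49 with LPS in embryonic stroma and 14 and 17 in adult stroma. The LPS to PBS ratio in CPM was 1.69 (95% counting interval 1.07 to 2.69) and 1.08 (0.501 to 2.37), with an interval that covers counting error and not the spread between cultures.

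Ptger1 (EP1, chromosome 8, 83666644-83672756, plus strand) was at 0.939, 1.68 and 1.24 CPM in embryonic PBS, 0.702, 1.85 and 1.13 in embryonic LPS, 2.54, 2.03 and 3.17 in adult PBS and 3.41, 1.42 and 2.20 CPM in adult LPS libraries, from 20 to 105 counts per library. Its log2 change with LPS was -0.08 (SE 0.27, adjusted p = 0.902 with the block) in embryonic and -0.17 (SE 0.25, adjusted p = 0.817) in adult stroma. Between stages it was lower in embryonic stroma, by -1.002 with PBS (SE 0.44, adjusted p = 0.236) and -0.90 with LPS (SE 0.44, adjusted p = 0.265), neither of which passed. These values hold for counts on its own strand, and counts without regard to strand turned the stage differences to 0.19 and 0.17.

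The wider pathway was read from 5 lists, of phospholipases, other synthases, transport and breakdown, other receptors and leukotriene genes, with 41 genes of which 26 were tested. Without the block edgeR called 0 of the 26 for LPS in either stage (2 in each at an unadjusted p below 0.05), and DESeq2 called 1 in each, Ptgir. With the block edgeR called 4 of the 26 in embryonic stroma, all higher, or 15.4% against 12.5% of all tested genes, and 2 in adult stroma, both higher, or 7.69% against 6.2%, shares near those over all genes. DESeq2 with the block called 4 higher and 2 lower in embryonic stroma, or 23.1% against 14.2% of all tested genes. In adult stroma it called 3 higher and 1 lower, or 15.4% against 7.89%. By edgeR with the block the embryonic calls were 1 of 8 tested phospholipases, 2 of 5 transport and breakdown genes, 1 of 3 other receptors and 0 of 6 other synthases and 0 of 4 leukotriene genes, and the adult calls 1 of 5 transport and breakdown genes and 1 of 3 other receptors. Ptgir, the prostacyclin receptor, was at 0.0907 to 0.212 CPM in embryonic PBS and at 0.198 to 3.00 CPM in embryonic LPS libraries, and at 0.338 to 0.999 and 4.01 to 9.06 CPM in adult ones. It rose by 2.96 on the log2 scale (SE 0.63, adjusted p = 0.0205) in embryonic and by 3.47 (SE 0.46, adjusted p = 0.00434) in adult stroma, and in embryonic stroma it was called in 2 of 6 fits without a pair (adjusted p up to 0.0903) and in adult stroma in 4 of 6 (up to 0.0671). Slco2a1, a prostaglandin transporter, rose by 0.53 (SE 0.10, adjusted p = 0.0101) in embryonic and 0.41 (SE 0.09, adjusted p = 0.0458) in adult stroma, called in 6 and 2 of 6 fits without a pair (adjusted p up to 0.287 in adult stroma). Slco3a1, a related transporter, rose by 0.88 (SE 0.23, adjusted p = 0.0470) in embryonic stroma, a call kept in 1 of 6 such fits, without embryonic pair 2 (adjusted p up to 0.106), and stood at 0.74 (SE 0.23, adjusted p = 0.129) in adult stroma. Pla2g16, a phospholipase, rose by 0.94 (SE 0.17, adjusted p = 0.00956) in embryonic stroma, called in 6 of 6 fits without a pair. Pla2g4a, the cytosolic phospholipase A2 that releases arachidonic acid, was named after its values were seen and stood at 178 to 356 CPM in embryonic and 165 to 217 CPM in adult libraries, with log2 changes of 0.09 (adjusted p = 0.751) and 0.08 (adjusted p = 0.835).

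Between stages, edgeR called 2 of the 26 with PBS and 2 with LPS, all higher in embryonic stroma, or 7.69% in each against 4.08% and 5.31% of all tested genes. DESeq2 called 5 with PBS and 8 with LPS, or 19.2% and 30.8% against 11.9% and 13.1%. Of these, 4 were higher and 1 lower in embryonic stroma with PBS, and 5 were higher and 3 lower with LPS. Pla2g7, a phospholipase that inactivates platelet-activating factor and was named after its values were seen, was at 5.11 to 37.9 CPM in the 6 embryonic and 0.524 to 0.957 CPM in the 6 adult libraries, a log2 difference of 4.75 with PBS (adjusted p = 0.0112) and 4.92 with LPS (adjusted p = 0.0102). Tbxas1, the thromboxane synthase, differed by 3.32 with PBS (adjusted p = 0.0298) and stood at 2.60 with LPS (adjusted p = 0.0537). Alox5, the lipoxygenase that starts leukotriene synthesis, differed by 3.30 with LPS (adjusted p = 0.0453) and stood at 2.13 with PBS (adjusted p = 0.159). The macrophage sum was likewise 224 to 3258 CPM in embryonic and 55.0 to 224 CPM in adult libraries, and its part in these differences was not tested.

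**Figure D4:**
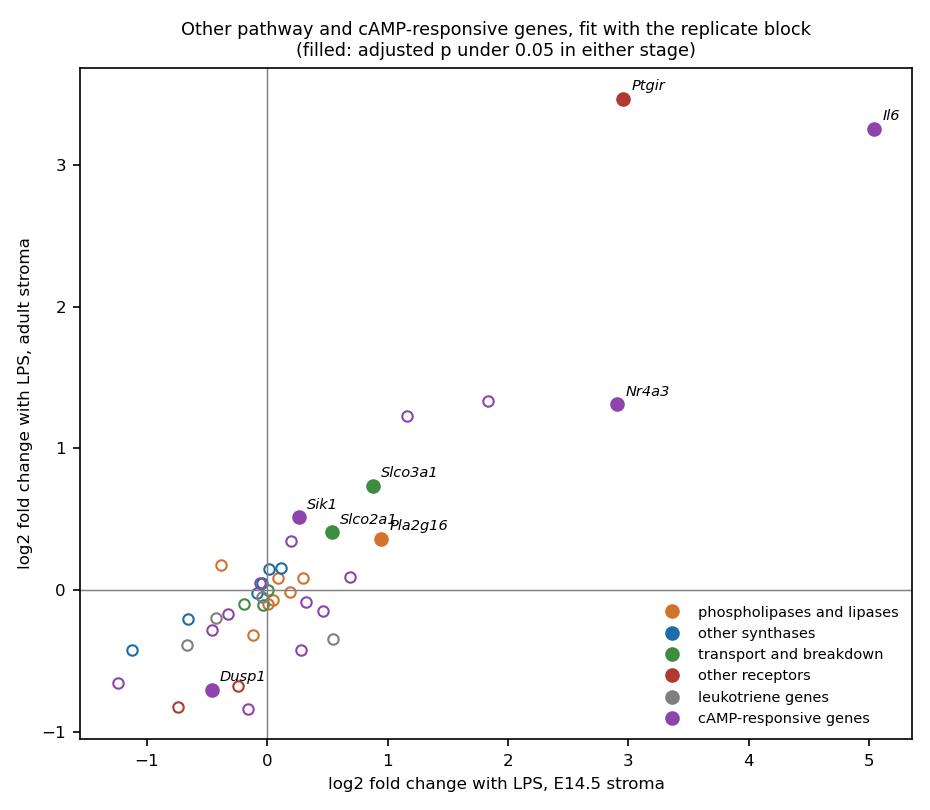
Log2 fold change with LPS in embryonic (horizontal axis) against adult stroma (vertical axis), fitted with the replicate block, for 26 tested pathway genes and 16 cAMP-responsive genes. Filled points passed the adjusted p in either stage. Ptgir and Il6 lie highest, at 3.47 and 3.26 in adult stroma, and most of the open points lie near 0.

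EP2 and EP4 raise cAMP, and 16 genes that respond to cAMP, all tested, were listed for that reason. By edgeR with the block, 2 rose in embryonic stroma, or 12.5%, the share over all tested genes as well (Il6, by 5.04, SE 0.67, adjusted p = 0.00226, and Nr4a3, a nuclear receptor, by 2.91, SE 0.62, adjusted p = 0.01996). In adult stroma 2 rose and 1 fell, or 18.8% against 6.2% of all tested genes: Il6 by 3.26 (SE 0.57, adjusted p = 0.0150), the kinase gene Sik1 by 0.51 (SE 0.11, adjusted p = 0.0376) and the phosphatase gene Dusp1 with -0.70 (SE 0.13, adjusted p = 0.0196). Il6 was called in 6 of 6 fits without a pair in embryonic stroma and Nr4a3 in 4 of 6 (adjusted p up to 0.0520). In adult stroma the calls of Il6 and Dusp1 were kept in the 3 fits without an embryonic pair and lost without any adult pair (adjusted p up to 0.144 and 0.160), and that of Sik1 was kept in 2 of 6 (up to 0.369). Over the 16 genes the median log2 fold change was 0.27 for the embryonic effect, beside 0.0013 over all tested genes, and -0.02 for the adult effect, beside -0.0089. Without the block edgeR called 1 of the 16 in embryonic stroma, Il6 (4.98, SE 0.93, adjusted p = 0.0196), and 0 in adult stroma (2 at an unadjusted p below 0.05). DESeq2 without the block called Il6 and Nr4a3, both higher, in embryonic stroma, and Il6, higher, and Dusp1, lower, in adult stroma. That was 12.5% of the list in each stage, against 5.25% of all tested genes in embryonic and 2.25% in adult stroma. DESeq2 with the block called 4 higher and 2 lower in embryonic stroma, or 37.5% of the list against 14.2% of all tested genes. In adult stroma it called 2 higher and 2 lower, or 25% against 7.89%.

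Genes with the pattern nearest to those of 3 members were found by the root mean square difference of centred log2 CPM over the 12 libraries. For Ptgs2 these were Ccrn4l (0.372), Lrrc4c (0.509) and Nipal1 (0.519), against a median of 1.32 over all genes. For Ptges they were Gm13889 (0.771), Stx11 (0.823) and Adamts4 (0.827), against 2.11. For Hpgd they were Lrrc33 (0.998) and Lonrf3 (1.17), against 2.14.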

How the data were processed

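The authors deposited STAR gene counts per library, as 1 unstranded and 2 stranded columns, from uniquely mapped reads aligned to the mouse genome (GRCm38, mm10 in the submitters' processing notes). The libraries were stranded and polyA-selected, and the column for the sense strand was used. The opposite strand held 1.14% to 1.98% of the stranded gene counts. The share of reads assigned to no gene was 7.49% to 8.38%. Libraries held 18850224 to 32672370 gene counts. Genes above 0.5 CPM in every library of at least 1 group were tested with edgeR 4.0.16 (R 4.3.3; TMM scaling, quasi-likelihood F test, 4 groups in 1 model) with Benjamini-Hochberg adjustment over all 13038 genes tested. Same-numbered LPS and PBS libraries of a stage deviated together (correlations 0.610 to 0.849), so blocked values are given. The pairing is read from the numbers, as the sources used here do not say that these libraries share a culture. P-values without the block rest on the spread between libraries of a group. Those with the block within a stage rest on the spread of the LPS minus PBS differences between pairs. Members and lists were chosen with earlier results of these data known. Named genes were the members, listed genes called for LPS or else at most 2 per list with the largest change, and the 3 genes nearest in pattern to each of Ptgs2, Ptges and Hpgd, of which 1 is not reported here. Alternatives were DESeq2 1.42.0, other scaling and filters, counts from either strand, fits by stage or treatment alone, and left-out libraries. The scripts were tested on simulated data.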

Additional observations from a re-analysis of the deposited data

Results flagged for a closer look

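Ptges reads on the opposite strand, a column not used for its values, had a mean of 0.201 CPM in embryonic LPS libraries, with 2, 2 and 12 counts, against 0 in each embryonic PBS library. Opposite-strand reads made up 0.536% of all reads at Ptges, below the 1.14% to 1.98% over all genes.

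Pla2g15, a lysosomal phospholipase, was lower with LPS in all 3 embryonic pairs (log2 -0.12, -0.05 and -1.05) and higher in all 3 adult pairs (0.18, 0.16 and 0.17), a mean difference of -0.58. The test of that difference did not pass (-0.56, adjusted p = 0.586 by edgeR with the block).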

How the results depend on the processing

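The number of the 8 tested members called for LPS in embryonic stroma was 1 in the unpaired fit, 2 with DESeq2, 4 with the replicate block, 4 with the block and DESeq2 or RLE scaling, 0 with the stage fitted alone and 0 to 6 with libraries or pairs left out. In adult stroma it was 0, and 1 with the replicate block, alone or with DESeq2 or RLE scaling, and 0 to 2 with libraries left out. The difference between stages had 1 call with DESeq2 and the block and 0 otherwise. Stage differences kept 1 call, except 2 with LPS by DESeq2, 0 with each treatment fitted alone, and 0 to 1 (PBS) or 0 to 2 (LPS) with libraries left out. Over all genes the calls in embryonic stroma went from 358 to 684 with DESeq2, 1635 with the block and 4 with the stage alone, and in adult stroma from 79 to 294, 808 and 227. Library numbers did not pair the samples across stages (correlations -0.306 to -0.00198), where a block gave 891 calls with PBS and 1059 with LPS in place of 532 and 692. Leaving out scaling factors moved the median of all genes by -0.134 on the log2 scale for LPS in embryonic stroma.

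Values that changed sign were not called in the unpaired fit, and the causes were not tested. Ptgis with LPS in embryonic stroma was 0.12 with the replicate block (0.11 with DESeq2, 0.11 with RLE). The Ptgs2 difference between stages was -0.0044 with RLE scaling or DESeq2, -0.039 without scaling and -0.018 without a filter, and that of Ptger4 was 0.0017 with edgeR's own filter. Counts from either strand gave Ptger1 a difference of -0.021 and stage differences of 0.19 (PBS) and 0.17 (LPS). A block across stages gave Ptgs2 -0.20 (PBS) and -0.079 (LPS) and Ptges -0.41 (LPS), and Ptges was -0.015 without scaling. With libraries left out, the LPS effect in embryonic stroma ranged from -1.29 to 0.28 for Ptgs1, -0.68 to 1.02 for Ptgis, -0.49 to 0.26 for Ptger1, -0.0067 to 1.81 for Pla2g16 and -0.045 to 1.09 for Slco2a1, and in adult stroma from -0.76 to 0.31 for Ptgs1 and -0.51 to 0.13 for Ptger1. The difference between stages ranged from -1.09 to 0.48 for Ptgs1, -0.66 to 1.42 for Ptgs2, -1.06 to 0.63 for Ptgis, -0.36 to 0.48 for Ptger1, -0.24 to 1.59 for Ptger2 and -0.80 to 0.42 for Ptger4. With PBS the stage difference ranged from -1.02 to 0.20 for Ptgs1, -1.24 to 0.80 for Ptgs2 and -0.96 to 0.26 for Ptger4. With LPS it ranged from -1.39 to 0.027 for Ptgs1, -0.49 to 0.45 for Ptgs2, -1.32 to 0.52 for Ptges and -0.71 to 2.07 for Hpgd.

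Depth limits Ptgds, Ptger3, adult Ptger2 and Hpgd with LPS, where libraries held few counts. The alternatives that left out both libraries of a number and those that joined the block with DESeq2 or RLE scaling were chosen after seeing the data.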
